A study of Mus musculus with 6 samples.

Results

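The genes described here are 7 protein tyrosine phosphatases of T cells: Ptprc (CD45) and Ptprj (CD148), which span the membrane, and Ptpn11 (SHP-2), Ptpn6 (SHP-1), Ptpn22 (PEP), Ptpn2 (TC-PTP) and Ptpn7 (HePTP), which do not. The readout was ATAC-seq, where a transposase tags the DNA it can reach. A region of the deposited count table belonged to a gene when it overlapped the gene's interval, or when it was intergenic, had that gene as its nearest protein-coding gene and lay within 100 kb of it. This gave 121 regions of 74686, of which 99 lay inside a gene and 22 between genes. Ptprc held 53, Ptprj 20, Ptpn22 16, Ptpn2 13, Ptpn11 10, Ptpn7 5 and Ptpn6 4. All 121 passed the filter on low counts.

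All libraries are of OT1 cells, CD8 T cells whose transgenic receptor sees a peptide of ovalbumin. They were isolated by CD8 and CD45.1 sorting out of tumors of B16-OVA-GP61, melanoma cells of the mouse that carry ovalbumin and the GP61 epitope. One group (3 libraries) came from tumors without SMARTA cells and the other (3 libraries) from tumors with SMARTA cells, which are CD4 T cells with a transgenic receptor for GP61. OT1 receptor, congenic sort and tumor line were thus common to both groups, while age, strain and times after transfer are not given in the sources used. Whether each replicate is a separate animal is not stated in the labels, and p-values therefore reflect only the spread between these libraries, which may be technical. CD45.1 is itself an allele of Ptprc, and reads of both groups were placed on the same build, GRCm38.

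Protein tyrosine phosphatases remove phosphate groups that kinases put on tyrosines. In T cells they work in both directions: CD45 and CD148 take the inhibitory phosphate off the kinase LCK, while SHP-1, PEP and TC-PTP remove activating phosphates from receptor-proximal kinases or from cytokine receptor kinases. SHP-1 and SHP-2 carry SH2 domains with which they bind the phosphorylated tails of inhibitory receptors such as PD-1.

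With SMARTA cells, 12 of the 121 phosphatase regions closed and 5 opened, and the other 104 did not pass. Closed and opened mean an adjusted p under 0.05 in edgeR's quasi-likelihood test with Benjamini-Hochberg adjustment over all 74686 regions. These shares (9.92% closed, 4.13% opened) lay near those of all regions, of which 10.4% closed and 4.68% opened. As a group the phosphatase genes thus did not stand out, and the differences between them are in which regions moved. Every one of the 12 closed regions fell 2-fold or more, with log2 folds (with minus without SMARTA cells) from -3.23 to -1.23. Of the 5 opened regions 2 rose 2-fold or more. How often called regions of the whole table changed 2-fold was not counted, so this contrast cannot be called particular to phosphatase regions. Closed regions lay at Ptpn11 (4), Ptprc (4), Ptprj (2), Ptpn22 (1) and Ptpn2 (1). Opened regions lay at Ptpn2 (4) and Ptprj (1), and no region of Ptpn6 or Ptpn7 passed. So 5 of the 7 genes held a closed region and 2 an opened one, against 22.8% and 15.0% of all 15960 genes with regions, of which 1748 have 10 or more regions, as 5 of these 7 do. ATAC-seq on sorted populations cannot tell apart a site open in fewer cells and a site less open in each cell.

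The split of calls depended in part on scaling and on single libraries. Scaling by total counts gave 15 closed and 3 opened regions. Leaving out replicate 3 of the group with SMARTA cells gave 9 closed and 1 opened, and leaving out replicate 1 of that group gave 18 closed and 4 opened. Leaving out replicate 1, 2 or 3 of the other group gave 12 closed each time and 2, 1 and 1 opened. Replicate 2 with SMARTA cells lies apart from its group mates over all regions, and leaving it out gave 12 closed and 8 opened. Of the 12 closed regions 9, and of the 5 opened regions 1, passed in all 12 alternatives that kept the assignment of regions to genes.

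**Figure D1:**
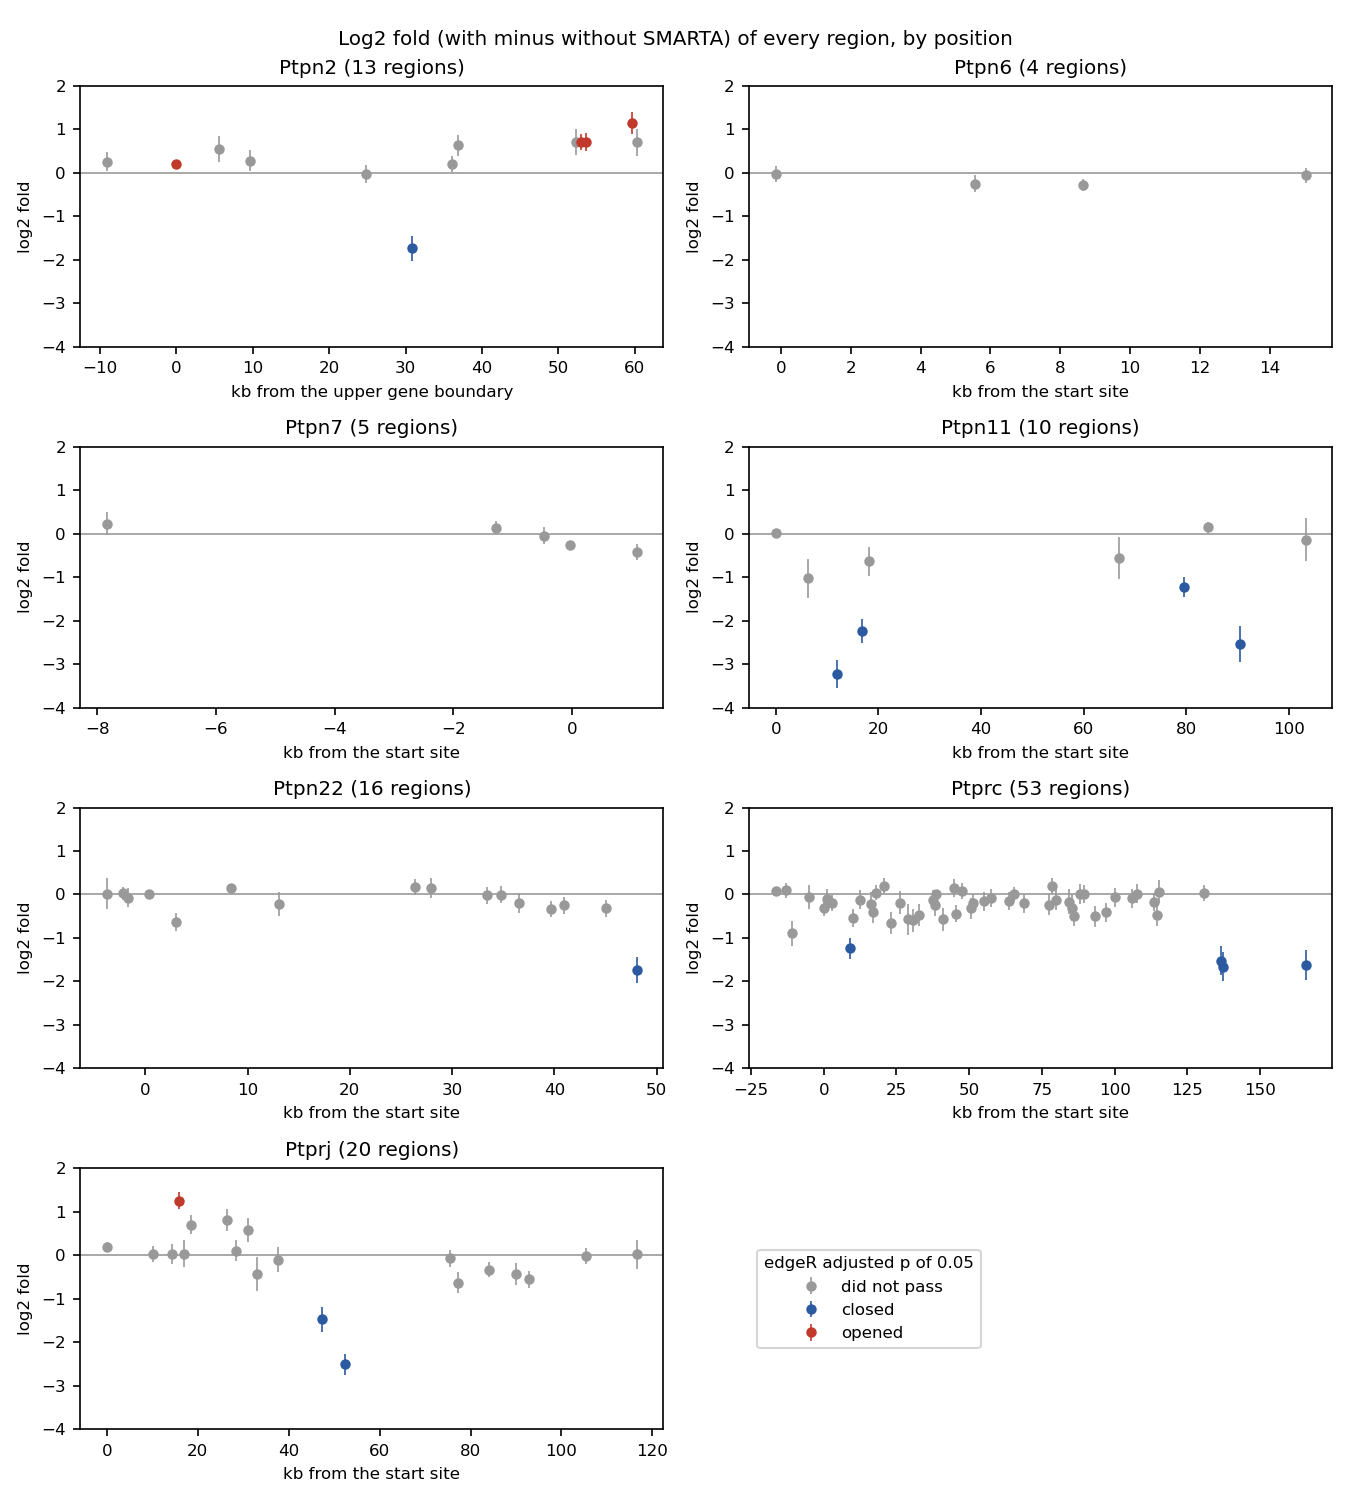
Log2 fold of each region (vertical axis, with minus without SMARTA cells, bars are ± 1 SE) against its distance in kb from the most upstream RefSeq start of the gene, positive in the direction of transcription, or for Ptpn2 from the upper gene boundary, positive into the gene. Blue points closed, red points opened and grey points did not pass; the lowest point is the Ptpn11 region 12 kb in, at -3.23, and the highest the Ptprj region at 15.9 kb, at 1.25.

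At the regions nearest to the gene starts, log2 folds ran from -0.32 ± 0.17 (SE, at Ptprc, edgeR adjusted p = 0.24) to 0.20 ± 0.06 (at Ptpn2). All 7 are 401 bases long, so their levels (log2 CPM, counts scaled to library size, on the log2 scale) can be compared. Ptpn2 had the highest, with 6.87, 6.87 and 6.93 without and 6.997, 7.17 and 7.10 with SMARTA cells (replicates 1 to 3 in each case). Ptpn22 followed with 6.56, 6.58 and 6.45 against 6.61, 6.33 and 6.63. Below it, Ptpn7 (5.85, 5.74 and 5.86 against 5.66, 5.48 and 5.51) and Ptprj (5.35, 5.69 and 5.57 against 5.84, 5.73 and 5.66) overlapped each other. Next came Ptpn11, then Ptprc (4.88, 4.93 and 4.76 against 4.85, 4.16 and 4.53), and Ptpn6 was lowest, at 3.95, 3.67 and 3.95 against 4.09, 3.56 and 3.81. Apart from Ptpn7 and Ptprj, the library values of neighbours in this order did not overlap. The Ptprj start region also overlaps the gene Gm46752, and that of Ptpn6 lies 0.117 kb from Grcc10, so neither signal belongs to 1 gene alone. Farther into Ptpn6, the regions at 5.5, 8.6 and 15.0 kb had higher means than its start region (4.77, 4.94 and 5.29 log2 CPM). The order above thus ranks regions at the listed starts and not whole genes.

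**Figure D2:**
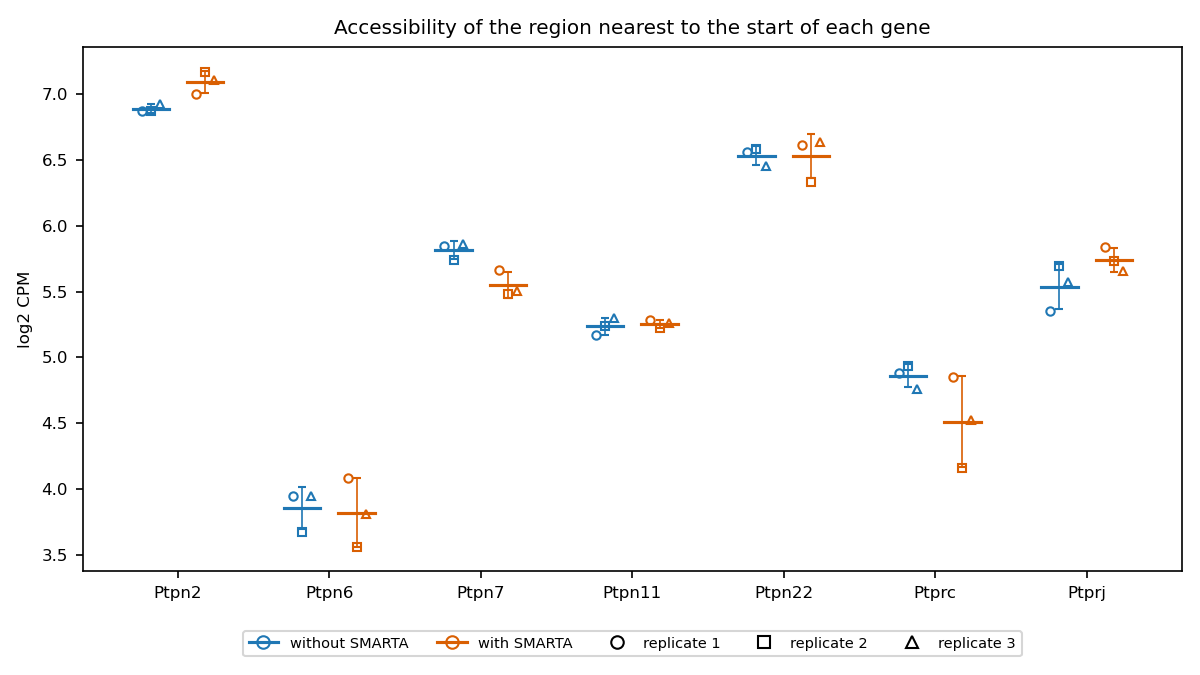
Log2 CPM (vertical axis) of the region nearest to the start of each of the 7 genes in every library, with group mean (line) and SD (bar). The groups overlap at Ptpn6, Ptpn11, Ptpn22, Ptprc and Ptprj, lie apart upward at Ptpn2 (6.89 to 7.09) and apart downward at Ptpn7 (5.82 to 5.55).

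Of these 7 start regions only that of Ptpn2 passed, with a log2 fold of 0.20 ± 0.06 (SE; edgeR adjusted p = 0.043). That call was lost under loess scaling, where the fold was 0.01, and in 8 other alternatives. The Ptpn7 start region fell short by a little (-0.27 ± 0.08, edgeR adjusted p = 0.056) and passed downward in 4 alternatives. At Ptpn11 the start region read 5.17, 5.24 and 5.30 without and 5.28, 5.22 and 5.26 with SMARTA cells (log2 fold 0.02 ± 0.09, edgeR adjusted p = 0.92). Among regions of the table that could be placed against a listed start of their gene, 8.26% of the 10324 within 1 kb were called, 14.3% of the 11081 at 1 to 10 kb and 16.7% of the 35041 farther away. The regions without such a start are not in these shares. Among phosphatase regions it was 1 of 10 within 1 kb, 1 of 19 at 1 to 10 kb and 15 of 92 beyond 10 kb, with those of Ptpn2 placed from the gene boundary.

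Some genes had closed regions elsewhere in the locus while their start regions did not pass. Ptpn22 is among them, but its sequence is not printed. The sequences before the starts of the other 3 follow. Each is the 250 bases upstream of the most upstream start in the RefSeq table (GRCm38.p6), on the minus strand, written 5′ to 3′, and lies for the most part inside the start region. Capitals mark matches on either strand to AP-1 TGANTCA, ETS CGGAAG, RUNX TGTGGT, NFAT GGAAA, TCF ATCAAAG, T-box GGTGTGA or the GC box GGGCGG.
Ptpn11 (chr5:121191398-121191647): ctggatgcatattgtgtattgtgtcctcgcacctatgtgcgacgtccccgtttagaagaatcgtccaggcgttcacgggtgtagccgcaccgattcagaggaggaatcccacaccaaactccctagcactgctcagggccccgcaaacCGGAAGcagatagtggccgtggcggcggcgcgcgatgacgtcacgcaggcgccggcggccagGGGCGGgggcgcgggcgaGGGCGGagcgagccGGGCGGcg
Ptprj (chr2:90580596-90580845): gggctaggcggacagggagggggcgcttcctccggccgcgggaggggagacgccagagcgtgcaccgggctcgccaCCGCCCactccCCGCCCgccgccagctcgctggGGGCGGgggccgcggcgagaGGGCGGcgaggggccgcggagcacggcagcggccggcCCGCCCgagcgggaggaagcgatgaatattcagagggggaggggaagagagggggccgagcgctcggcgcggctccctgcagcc
Ptprc (chr1:138175306-138175555): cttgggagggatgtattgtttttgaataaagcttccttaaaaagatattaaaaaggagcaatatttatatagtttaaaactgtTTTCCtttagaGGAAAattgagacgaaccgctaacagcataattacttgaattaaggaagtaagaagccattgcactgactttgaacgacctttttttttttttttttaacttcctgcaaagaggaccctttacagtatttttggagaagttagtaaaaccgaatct
The Ptpn11 and Ptprj windows are rich in G and C (66.8% and 79.2%, against a median of 52.4% over 32851 promoters) and hold 31 and 34 CG pairs. The GC box occurs 3 times before Ptpn11 and 5 times before Ptprj, and 32.7% of all promoters hold it. Ptpn11 also has 1 ETS match, which 13.6% of promoters have. Ptprc differs, with 31.6% G and C, 4 CG pairs, no GC box and 2 NFAT matches, a short motif that 55.6% of promoters hold. In the Ptpn22 window that its start region covers, the RUNX letters occur 2 times (14% of promoters hold them at least once) and the NFAT letters 1 time. The window before its most upstream start lies outside the region and holds none of these motifs. The ETS and NFAT letters share GGAA but cannot match at the same bases of 1 strand, and a match describes the sequence only. A promoter entry matched 6 of the 7 genes, all but Ptpn2.

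Ptpn11 encodes SHP-2, an SH2-domain phosphatase that binds PD-1 and also carries growth factor signals to RAS. Of its 10 regions 4 closed and 0 opened, with log2 folds from -3.23 to -1.23. Among the 1748 genes with 10 or more regions, 21.7% had 4 or more closed. The strongest lies inside the gene, 12 kb from the start (chr5:121179204-121179604), at 3.62, 3.20 and 3.45 log2 CPM without and 0.60, 0.73 and -0.62 with SMARTA cells. The groups are far apart (log2 fold -3.23 ± 0.33, edgeR adjusted p = 0.00035). In counts this is 245, 237 and 263 against 28, 26 and 15.

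The deposited peak lists give the called extent of this site. A lower peak can be called narrower, so they cannot tell a change in extent from one in height. Without SMARTA cells each of the 3 lists has 1 wide peak of 1235 to 1251 bases over the region, with the authors' fold enrichment between 7.49 and 8.42. With SMARTA cells no list has a peak on the region. A narrower peak of 173 to 447 bases remains 144 to 391 bases beyond it, within the span of the wide peaks, at an enrichment of 2.43 to 4.33. The count table holds no region at that remaining peak.

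A second Ptpn11 region inside the gene, 16.8 kb from the start (chr5:121174387-121174787), went from 2.177, 1.57 and 1.87 to -0.23, 0.07 and -0.54 log2 CPM (-2.24 ± 0.28, edgeR adjusted p = 0.00075). The other 2 closed regions lie beyond the far end of the gene. One, 29.3 kb from it (chr5:121100829-121101229), went from 5.57, 4.25 and 4.35 to 2.57, 1.39 and 2.68 log2 CPM (-2.54 ± 0.41, edgeR adjusted p = 0.0029). Replicate 1 without SMARTA cells was the highest there by more than 1 log2 unit, and the call held without that library. The other, 18.5 kb away (chr5:121111614-121112014), fell from 2.96, 2.48 and 2.53 to 1.65, 1.14 and 1.53 log2 CPM (-1.23 ± 0.22, edgeR adjusted p = 0.0053). Peaks of all 6 lists cover the first of this pair, and peaks of 3 lists the second. Between them, at 23.2 kb, a region of 5.2 log2 CPM did not pass (0.14 ± 0.12). The next protein-coding genes, Rph3a and Rpl6, are 90.7 and 92.5 kb from these 2 closed regions. The 4 Ptpn11 calls passed in each alternative that contained those regions.

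Ptpn6 encodes SHP-1, the related SH2-domain phosphatase that restrains antigen receptor signalling. Its 4 regions were all well accessible (means from 3.84 to 5.29 log2 CPM), and their log2 folds lay between -0.29 and -0.02. None passed (lowest edgeR adjusted p = 0.20, at 8.6 kb from the start). There replicates 1 and 2 with SMARTA cells read 5.06 and 4.75 and replicate 3 read 4.57, against 5.05, 5.04 and 5.18 without, so the groups overlap. The most accessible region, at 15.0 kb (chr6:124723475-124723875), read 5.30, 5.28 and 5.43 without and 5.64, 4.87 and 5.23 with SMARTA cells (-0.06 ± 0.16, edgeR adjusted p = 0.86). Peaks of all 6 lists cover both, and peaks of 3 lists the start region.

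Ptprc encodes CD45, the abundant receptor phosphatase of all leukocytes. It held the most regions, and 4 of 53 closed and 0 opened. Both are smaller shares than the 10.4% closed and 4.68% opened over all regions. One closed region lies inside the gene 9.0 kb from the start (chr1:138166093-138166493) and went from 3.79, 3.87 and 3.81 log2 CPM to 3.03, 2.04 and 2.53 (-1.24 ± 0.24, edgeR adjusted p = 0.0077). All 3 libraries with SMARTA cells are below the others, replicate 2 by the most. This call passed in all 14 alternatives. The other 3 lie beyond the far end of the gene, at 23.7, 24.4 and 53.0 kb from it. At 23.7 kb (chr1:138038745-138039145) the values were 3.79, 3.47 and 3.36 without and 2.72, 1.09 and 1.85 with SMARTA cells. The fold was -1.52 ± 0.34 (edgeR adjusted p = 0.015). The neighbouring region at 24.4 kb (chr1:138037842-138038463) fell from 3.17, 2.04 and 2.46 to 1.43, 1.01 and 0.49 log2 CPM. The weak region at 53.0 kb (chr1:138009498-138009898) fell from 0.87, 0.63 and 0.50 to -1.01, -0.41 and -0.9951, and the groups do not overlap at either. Peaks of 5 lists cover the region inside the gene, and peaks of 6, 4 and 2 lists touch the 3 beyond it. At 24.4 kb the only such peak with SMARTA cells, in replicate 1, starts at chr1:138038458, at the region's edge. It runs on over the region at 23.7 kb. Without replicate 3 with SMARTA cells these 3 calls were lost (edgeR adjusted p = 0.052 to 0.072), and 1 Ptprc region was closed. The call at 23.7 kb was also lost without replicate 1 of the other group (edgeR adjusted p = 0.054). Leaving out replicate 1 of the group with SMARTA cells gave 8 closed Ptprc regions. Being intergenic, the 3 have Ptprc only as their nearest gene, and the next one, Atp6v1g3, is 235 to 264 kb away from them.

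Along the Ptprc gene the far part differs from the part near the start, a division chosen after the values were seen. The 23 regions inside the gene and more than 42 kb from the start were weak, with means from 0.78 to 2.25 log2 CPM, and none closed or opened (log2 folds from -0.50 to 0.20). The 19 regions within 42 kb of the start reached 5.21 log2 CPM, with a median of 3.18, and 1 closed. The most accessible Ptprc region lies 16.6 kb before the start (chr1:138191680-138192080). It read 5.61, 5.84 and 5.60 without and 5.81, 5.71 and 5.82 with SMARTA cells (0.09 ± 0.09, edgeR adjusted p = 0.55). Of the 53 regions, 40 had a negative and 13 a positive fold (median -0.19, against 0.01 over all regions). The share of negative folds over all regions was not counted. These regions share the same 6 libraries, and the Ptprc sum did not pass (edgeR adjusted p = 0.20).

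Ptprj encodes CD148, a receptor phosphatase with a long extracellular part that acts on SRC family kinases. It changed both ways: of its 20 regions 2 closed and 1 opened, all inside the gene. Of genes with 10 or more regions, 29.5% held both a closed and an opened one. The closed pair lies farther into the gene than the opened region. At 52.3 kb from the start (chr2:90528098-90528498) the level went from 2.69, 3.00 and 3.24 to 0.45, 0.30 and 0.83 log2 CPM (-2.51 ± 0.24, edgeR adjusted p = 0.00032). At 47.4 kb (chr2:90533000-90533400) it went from 1.62, 1.78 and 1.75 to -0.41, 0.78 and 0.36 (-1.47 ± 0.29, edgeR adjusted p = 0.0074). In the first, peaks of 803 to 1023 bases without SMARTA cells gave way to peaks of 159 and 257 bases in replicates 1 and 3 and no peak in replicate 2.

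The opened Ptprj region lies 15.9 kb from the start (chr2:90564529-90564929). It rose from 3.30, 3.70 and 3.88 to 5.12, 4.92 and 4.60 log2 CPM (1.25 ± 0.19, edgeR adjusted p = 0.0023), and each library with SMARTA cells was above each without. The authors' fold enrichment there was 4.23 to 5.59 without and 7.53 to 10.2 with SMARTA cells. This was the opened region that passed in all 14 alternatives. Regions at 18.4 and 26.5 kb also had all 3 libraries with SMARTA cells above the rest (0.70 ± 0.22 and 0.81 ± 0.25) but did not pass (edgeR adjusted p = 0.054 and 0.056). Without replicate 2 with SMARTA cells, 4 Ptprj regions opened.

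Ptpn22 encodes PEP, which pairs with the kinase CSK to turn off LCK and ZAP70. Of its 16 regions 1 closed, a smaller share than the 10.4% over all regions, and the other 15 did not pass. The closed region lies inside the gene near its far end, 48.1 kb from the start (chr3:103907667-103908067) and 6.02 kb from Rsbn1. It went from 3.74, 4.62 and 4.11 to 2.99, 1.96 and 2.31 log2 CPM (-1.73 ± 0.30, edgeR adjusted p = 0.0043), and the call passed in all 14 alternatives. Peaks of all 6 lists cover it, with enrichments of 6.13 to 7.90 without and 2.02 to 4.59 with SMARTA cells. A region 3.0 kb from the start changed by -0.63 ± 0.21 log2 units, short of the threshold (edgeR adjusted p = 0.069).

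Ptpn2 encodes TC-PTP, which removes phosphate from JAK kinases and STAT factors and so dampens interferon and interleukin-2 signals. Its regions mostly had positive folds (11 of 13, median 0.54), 4 opened and 1 closed. They share the same 6 libraries, and the Ptpn2 sum did not pass (edgeR adjusted p = 0.13). Genes of 10 or more regions had 4 or more opened in 5.09% of cases. The closed region lies inside the gene, 30.9 kb from the upper boundary (chr18:67693517-67693917). It went from 1.798, 2.80 and 2.06 to 0.60, 0.56 and 0.67 log2 CPM (-1.74 ± 0.29, edgeR adjusted p = 0.0033), and the 3 lists without SMARTA cells have a peak there while the 3 with them have none. Among the opened ones, a region 0.252 kb beyond the lower boundary (chr18:67664849-67665249) rose most, from 1.69, 0.92 and 0.87 to 2.53, 2.02 and 2.34 (1.15 ± 0.26, edgeR adjusted p = 0.016). Inside the gene near that end, chr18:67671526-67671926 rose from 2.78, 2.78 and 2.63 to 3.29, 3.61 and 3.36 log2 CPM (0.70 ± 0.18). Beside it, chr18:67670839-67671239 rose from 0.83, 0.70 and 0.99 to 1.65, 1.39 and 1.53 (0.71 ± 0.21). In each of these the groups lie apart. The fourth is the start region described above. Peaks of 3 lists touch chr18:67670839-67671239, at enrichments of 2.49 to 2.62, and its call passed in 5 of 13 alternatives. The strong peaks over its neighbour chr18:67671526-67671926 come within 8 to 159 bases of it. These 2 calls may thus not be separate sites. The opened calls were close to the threshold (edgeR adjusted p from 0.016 to 0.046). All 4 were lost without replicate 2 or 3 of the group without SMARTA cells, or without replicate 3 with them. The closed region passed in all 14 alternatives.

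Ptpn7 encodes HePTP, a small phosphatase that acts on the MAP kinases ERK and p38. None of its 5 regions passed, and their log2 folds ran from -0.41 at 1.1 kb after the start to 0.23 at 7.8 kb before it. The region at 1.1 kb read 4.52 ± 0.17 without and 4.09 ± 0.33 log2 CPM with SMARTA cells (SD over 3 libraries; edgeR adjusted p = 0.17).

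**Figure D3:**
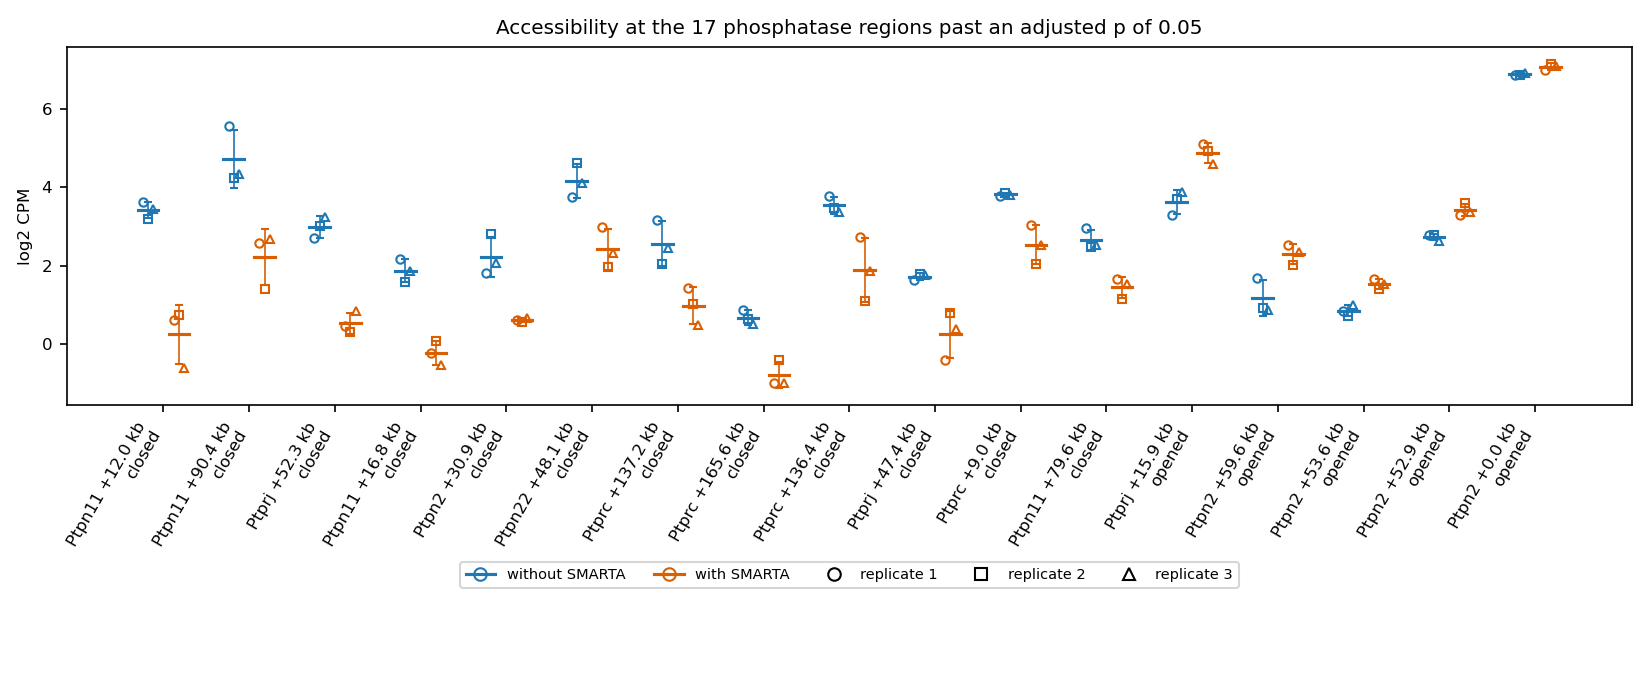
Log2 CPM (vertical axis) in every library of the 12 closed regions, then the 5 opened ones, each named by gene and distance in kb from the start, with group mean (line) and SD (bar). At each of the 17 regions the 3 libraries of one group lie wholly above the 3 of the other. The regions were picked by their adjusted p in these same libraries, which favours such a separation.

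Over all 121 regions, all 3 libraries with SMARTA cells lay below the others in 21 and above them in 11. Together that is 26.4%, against 34.2% over all regions of the table (18.5% below, 15.7% above). By accessibility, 26 phosphatase regions fall in the most accessible of 5 equal classes of all regions, and of these 0 closed and 2 opened. Over all regions of that class, 414 closed and 1460 opened, out of 14938.

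Whether a region moved differently from the rest of its own gene was tested with diffSpliceDGE of edgeR, which sets the fold of each region against that of its gene. It passed in 13 of the 121 regions (10.7%, against 11.2% over all 69102 regions of genes tested), and each of the 13 is among the 17 called ones. At Ptpn11 the regions at 12, 90.4 and 16.8 kb from the start fell beyond their gene, by -2.73, -2.04 and -1.74 log2 units (diffSpliceDGE adjusted p = 1.1e-05, 5.5e-05 and 0.0094). All 3 called Ptprj regions differed from their gene, the opened one by 1.30 and the closed ones by -2.45 and -1.42. The closed Ptpn2 region stood -1.96 from its gene, and the one beyond the lower boundary 0.93. Of the called regions 4 did not differ from their gene: the Ptpn11 region at 79.6 kb and 3 of the opened Ptpn2 regions. The test treats regions of a gene as separate although they come from the same libraries, so its p-values may be too small.

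Summed over all its regions, Ptpn11 was the 1 member that passed, among 15960 genes of which 7.61% passed (5.63% lower, 1.97% higher). Its sums were 7.35, 6.72 and 6.86 log2 CPM without and 6.50, 6.36 and 6.45 with SMARTA cells (log2 fold -0.56 ± 0.14, edgeR adjusted p = 0.041). Replicate 1 without SMARTA cells is the highest of the 6, and without it the fold was -0.35 ± 0.08 (edgeR adjusted p = 0.037). The call was lost when replicate 3 of that group or any library with SMARTA cells was left out (edgeR adjusted p = 0.063 to 0.13). The start region made up 29.2% of Ptpn11 counts without and 40.9% with SMARTA cells.

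The other sums did not pass. Ptprc had a log2 fold of -0.27 ± 0.12, Ptpn6 of -0.22 ± 0.14, Ptpn7 of -0.22 ± 0.09, Ptpn22 of -0.15 ± 0.11 and Ptprj of -0.11 ± 0.13, and Ptpn2 had 0.17 ± 0.06 (edgeR adjusted p from 0.13 to 0.65). Replicate 2 with SMARTA cells had the lowest sum of its group at each gene. Without replicate 1 of that group Ptprc, Ptpn6 and Ptpn7 passed downward (edgeR adjusted p = 0.036, 0.020 and 0.024), and Ptpn11 did not. At Ptpn2 the start region alone holds 67.8% of the counts without and 66.5% with SMARTA cells.

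**Figure D4:**
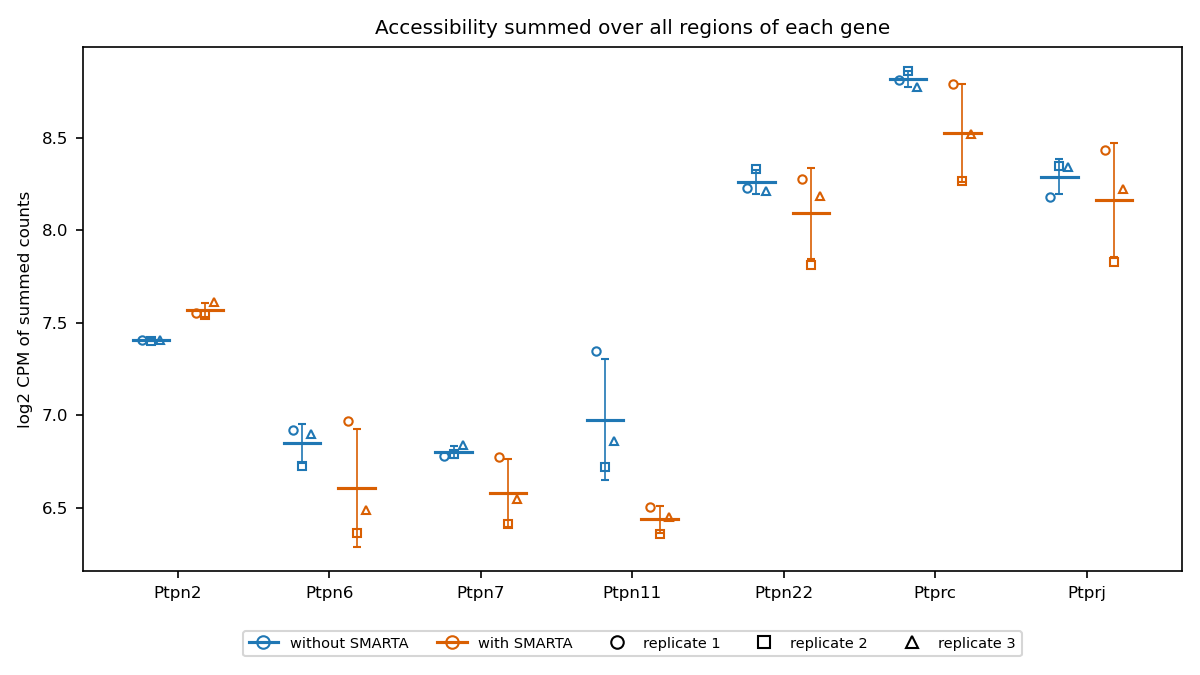
Log2 CPM of counts summed over all regions of each gene (vertical axis) in every library, with group mean (line) and SD (bar). Ptpn11 is lower in all 3 libraries with SMARTA cells (6.36 to 6.50 against 6.72 to 7.35), and Ptpn2 higher in all 3 without passing the test.

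Other genes of the pathway were taken in sets, each read against the 10.4% closed and 4.68% opened over all regions, with no test of a set. Of 212 regions at 25 other classical protein tyrosine phosphatases, 15 closed and 8 opened (7.08% and 3.77%, both under the shares over all regions), with a median log2 fold of -0.05 against 0.01 over all regions. Ptpn13, a large cytoplasmic phosphatase, had 6 closed of 22 regions, with -2.14 ± 0.27 at the strongest. Ptprs, a receptor phosphatase, had 2 closed of 11 (-2.20 ± 0.26). Ptpre and Ptpn1 went the other way, with 3 of 22 and 2 of 21 opened (1.28 ± 0.22 and 0.76 ± 0.15 at the strongest), and PTP1B, the product of Ptpn1, is the closest relative of TC-PTP.

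Among 33 kinases, adaptors and substrates of these enzymes, 41 of 450 regions closed and 15 opened (9.11% and 3.33%, again under both; median log2 fold -0.005). Fyn, a SRC family kinase, had 11 closed and 0 opened of 52 regions, with -1.49 ± 0.20 at the strongest. Jak1, a cytokine receptor kinase, had 4 closed and 4 opened of 35. Lcp2, the adaptor SLP-76, had 3 closed of 24 (-2.81 ± 0.27), and Skap1, an adaptor of integrin activation, 3 of 21 (-2.30 ± 0.29). At 13 receptors whose tails bind SH2-domain phosphatases, 19 of 82 regions closed and 3 opened. These shares were 23.2% closed, against 10.4% over all regions, and 3.66% opened, against 4.68% (median log2 fold -0.30). This list, like the others, was chosen with earlier results of these data known. Its share therefore cannot show that such receptors close more often. Pdcd1 had 6 closed and 1 opened of 13, Pecam1 4 closed of 12 (-1.70 ± 0.18), Lair1 2 closed and 1 opened of 7, and Klrc1 2 closed of 7 (-3.28 ± 0.33). Of these receptors 3 were also lower as sums: Pdcd1 (-0.64 ± 0.13), Pecam1 (-0.76 ± 0.07) and Cd22, a B cell receptor inhibitor with 3 regions (-1.08 ± 0.18). Their edgeR adjusted p-values were 0.016, 0.000665 and 0.0079.

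Libraries held 16595779 to 27182809 counts over the table, and the phosphatase regions had a median of 124 counts per library, the lowest value being 8. All 6 markers of CD8 T cells had regions, with summed levels of 1120 to 1149 CPM without and 949 to 1127 with SMARTA cells. Marker lists of other cells also had regions, among them 4 of 6 for B cells (107 to 153 against 81.0 to 112 CPM), 5 of 8 for myeloid cells (79.0 to 92.3 against 69.3 to 83.2) and 5 of 7 for melanocytes (258 to 273 against 266 to 289). For fibroblasts and endothelium 5 of 6 had regions (52.9 to 54.8 against 52.9 to 56.0), and for CD4 T cells 4 of 4 (192 to 225 against 223 to 243). No region was assigned to Ms4a1, Cd79a, Lyz2, Fcgr3, C1qa, Tyr, Tyrp1 or Tek. The list sums can rest on few genes. Among melanocyte markers the highest region read 7.08 log2 CPM at Pmel and 5.04 at Mitf. At Mlana, Sox10 and Dct it read 2.66, 1.76 and 0.63. Of the marker genes, only Pax5 passed as a sum (-0.68, edgeR adjusted p = 0.021). The part of other cells in the results was not tested. Inside the 7 genes, 52 further peak intervals touched no region of the table. Of these 38 were in 1 list only and 2 in 5 or more lists, the highest enrichment being 4.33.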

How the data were processed

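ATAC-seq counts of 6 libraries were analysed, 3 without and 3 with SMARTA cells, grouped and numbered from the sample titles. The authors deposited raw whole-number counts per region, without normalization, and 1 peak list per library with a score, a fold enrichment (ratio), a −log10 p and a −log10 q per peak. Per the submitters' processing notes, the build was GRCm38 and the tools include MACS2 2.1.1, DiffBind 3.4.11, Picard 2.18.9, BWA 0.7.17 and SAMtools 1.8, with no roles given. Duplicate removal, the transposase shift and the settings are not stated in the sources used, and leftover duplicates would inflate counts.

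Genes and promoters came from RefSeq tables of GRCm38.p6, and exons and introns were not distinguished. Distances run from a region's midpoint to the most upstream start. Regions inside several genes counted for each. edgeR 4.0.16 under R 4.3.3 was run on all regions (TMM, filterByExpr, which removed 0 regions, glmQLFit, glmQLFTest), on counts summed per gene, and with diffSpliceDGE. Simulated counts were put through the same steps, with a pass condition only for the largest region changes. They were drawn independently for each region, so dependence between regions was not checked. Adjusted p-values are Benjamini-Hochberg, the threshold is 0.05, and log2 CPM uses a prior count of 2. Alternatives were total-count and loess scaling, DESeq2 1.42.0, another count filter or none, a replicate block, gene bodies or 20 kb for assignment, and leaving out each library.

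The members and gene lists were chosen with earlier results of these data known. Named regions are those nearest the start, most accessible, or called, and named related genes are the 4 per list with the most called regions, with ties broken by the smallest p. That tie-break left out Cd247, Fyb, Stat3, Grb2 and Pag1 (3 called each; all 3 of Pag1 and 2 of Grb2 opened) and Ptpn4 and Ptpra (2 each). A few other regions, close to a called one or to the threshold, were named after their values were seen, as was Cd22.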

Additional observations from a re-analysis of the deposited data

How the results depend on the processing

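With gene bodies only, 7 of the 99 regions inside the genes were closed. That setting left out the 22 regions between genes and changed no region's test. The count of 12 closed regions ranged from 9 to 18 when 1 library was left out. The 5 opened regions became 3 under total-count scaling, 3 with the replicate block, and 1 to 8 when 1 library was left out. The 1 gene called on summed counts became 2 with gene bodies only (Ptpn7 and Ptpn11) and 0 to 3 when 1 library was left out. Some values near 0 that never passed changed sign, and the cause was not tested. The Ptpn22 region 0.4 kb from the start (0.0032) read -0.039 under total-count scaling, -0.16 under loess scaling, -0.0095 with at least 50 counts in 3 libraries, -0.0020 with the replicate block, and -0.038 to 0.093 when 1 library was left out. The Ptpn11 start region (0.020) read -0.021 under total-count scaling, -0.055 under loess scaling and -0.011 to 0.052 when 1 library was left out. The Ptprc region 16.6 kb before the start read -0.017 under loess scaling. Leaving out 1 library gave -0.28 to 0.11 for the Ptpn6 region at 15.0 kb, -0.17 to 0.094 for the Ptpn6 start region and -0.26 to 0.037 for the Ptprj sum, each highest without replicate 2 with SMARTA cells. The count of regions differing from the rest of their gene stayed within 1.5 times in each alternative run. Deviations of same-numbered libraries from their group means correlated at -0.020, -0.078 and 0.076, within the -0.11 to 0.086 of different numbers. With 3 libraries per group this cannot show whether same-numbered libraries shared an animal or day. The replicate block lost 2 opened Ptpn2 calls. Over all regions, leaving out 1 library gave 4403 to 8410 closed and 1224 to 4259 opened against 7767 and 3497. Over all gene sums it gave 412 to 1036 lower and 88 to 433 higher against 899 and 315, and DESeq2 gave 1341 and 565. The lowest count at a phosphatase region was 8, and the smallest change detectable at such a depth was not measured.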
